A study of Mus musculus with 2 samples.

Results

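The 9 genes described here are the immunoglobulin chains of A20 cells and their assembly partners: the heavy chain constant genes Ighm, Ighd, Ighg2b and Ighg2c, the kappa constant gene Igkc, the kappa variable segment Igkv1-110, the lambda variable segment Iglv1, Jchain and Mzb1. They were chosen by symbol and were 9 of the 28692 genes in the count matrices. They were read in cells of tumours that A20, a BALB/c line of malignant B cells, formed under the skin of Balb/c mice. Mice of the TAK-981 arm were given, by vein, TAK-981, an inhibitor of the enzyme that activates the small protein modifier SUMO, at 7.5 mg/kg, and the vehicle arm received 20% HPbCD, a cyclodextrin. Tumours of both arms were started with 1000000 cells per mouse, were treated at about 300 mm3 and were taken 8 h after dosing. Each arm is 1 library made with a 5′ single-cell kit after removal of dead cells, and neither the number of mice behind it nor their age is given in the labels used here, so differences between the arms have no replicate check and all intervals cover counting error only.

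An antibody is made of 2 heavy and 2 light chains. In a B cell, a rearranged variable segment is spliced first to the Ighm or Ighd constant exons, and switching of the constant region can replace these with an IgG gene. A cell normally keeps 1 productive light chain, of either the kappa or the lambda type. Mzb1 is an endoplasmic reticulum protein that helps assemble and secrete immunoglobulin, and Jchain is the joining chain that links IgM and IgA into polymers. A20 is known as an IgG2a, kappa line. The C57BL/6 reference genome carries Ighg2c at the place where BALB/c mice carry the IgG2a gene, and the deposited gene table has no Ighg2a row, so the Ighg2c row is read here as the counts assigned to that symbol.

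Some of these genes have neighbours of similar sequence, which bears on the counts of those genes below. A script read the coding exons from the GENCODE M21 transcripts (GRCm38), where all 9 genes matched by identifier and symbol. The build used for the deposited counts is not given in the sources used here. In the V exon of the kappa segments, shown because 1 of them carried nearly all kappa variable counts, Igkv1-110 and Igkv1-117 differed at 10 of 313 bases and had a common run of 142 bases, while Igkv1-110 and Igkv1-88 differed at 46 bases. The first 120 bases of exon 2 follow, with capitals at positions that differ among the 3 segments (chr6:68270955-68271074 on the plus strand, chr6:68121515-68121634 on the plus strand and chr6:68862458-68862577 on the minus strand, in the order of the lines).
Igkv1-110: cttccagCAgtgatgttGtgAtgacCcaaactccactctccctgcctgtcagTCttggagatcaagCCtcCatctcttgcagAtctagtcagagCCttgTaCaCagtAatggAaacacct
Igkv1-117: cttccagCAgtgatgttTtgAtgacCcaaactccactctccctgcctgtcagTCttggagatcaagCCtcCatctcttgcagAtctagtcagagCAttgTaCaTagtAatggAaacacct
Igkv1-88: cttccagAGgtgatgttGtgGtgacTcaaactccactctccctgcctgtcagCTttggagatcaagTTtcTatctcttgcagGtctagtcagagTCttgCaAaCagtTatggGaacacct

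The first constant exons of the IgG genes on chromosome 12 are shown because both IgG members were higher with TAK-981 and resemble each other in sequence. Ighg2c and Ighg2b matched at 87.6% of 291 bases with no shared run over 34 bases, and Ighg2c and Ighg3 matched at 78.4%. Capitals mark positions that differ among the 3 genes or from Ighg1 (chr12:113288813-113288932, chr12:113307814-113307933 and chr12:113361113-113361232, all on the minus strand).
Ighg2c: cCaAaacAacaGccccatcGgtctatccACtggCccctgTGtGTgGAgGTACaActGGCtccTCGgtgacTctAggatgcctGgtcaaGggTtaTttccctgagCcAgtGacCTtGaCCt
Ighg2b: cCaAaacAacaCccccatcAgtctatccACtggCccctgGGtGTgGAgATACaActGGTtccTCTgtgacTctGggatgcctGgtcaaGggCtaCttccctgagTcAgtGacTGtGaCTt
Ighg3: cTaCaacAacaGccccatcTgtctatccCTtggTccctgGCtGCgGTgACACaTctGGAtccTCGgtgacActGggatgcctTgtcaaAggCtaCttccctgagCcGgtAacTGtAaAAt

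The lambda segments Iglv1 and Iglv2 differed at 9 of 305 bases of the V exon and had a common run of 104 bases. Both are shown because each marked a small number of cells (chr16:19085202-19085321 and chr16:19260586-19260705, minus strand, capitals where the 2 differ).
Iglv1: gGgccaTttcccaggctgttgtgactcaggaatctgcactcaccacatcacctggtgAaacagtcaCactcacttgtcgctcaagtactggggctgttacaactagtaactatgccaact
Iglv2: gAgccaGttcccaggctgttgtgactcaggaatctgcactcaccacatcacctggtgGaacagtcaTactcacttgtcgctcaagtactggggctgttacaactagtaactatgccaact

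A20 cells were barcodes with at least 1 unique molecular identifier (UMI) of Cd79a, none of Cd3d, Cd3e, Cd3g or Lyz2, and under 10% of UMIs from mitochondrial genes. There were 1754 such cells of 2396 barcodes in the TAK-981 library and 2191 of 2579 in the vehicle library, with medians of 16195 and 22309 UMIs. T cells, with at least 2 UMIs summed over the Cd3 genes, numbered 48 with TAK-981 and 63 with vehicle, and myeloid cells, with at least 5 Lyz2 UMIs, numbered 39 with TAK-981 and 44 with vehicle. No barcode met both of the last rules, and 11 barcode sequences occurred in both libraries. A mitochondrial share of at least 10% was found in 376 barcodes with TAK-981 (15.7%) and 124 with vehicle (4.81%). In A20 cells all 6 fixed B cell markers were detected, Cd79a among them by rule, with a summed level of 1417 counts per 1000000 UMIs (CPM) with TAK-981 and 1335 CPM with vehicle, of which Cd79a gave 527 and 461 CPM. The summed levels of 9 T cell markers were 2.16 and 2.72 CPM, and those of 9 myeloid markers 4.84 and 3.60 CPM, in TAK-981 and vehicle A20 cells. Cd3d, Cd3e, Cd3g and Lyz2 were at 0 by rule. Of the plasma cell markers, Tnfrsf17 was at 0 in both libraries, Sdc1 at 0.955 CPM with TAK-981 and 1.38 CPM with vehicle, and Prdm1 at 1.11 and 0.566 CPM. The other one, Slamf7, was at 66.0 CPM with TAK-981 and 44.9 CPM with vehicle, with a UMI in 54.3% and 51.8% of A20 cells. Host B cells would meet the A20 rule too. Xist, which summed to 374 CPM with TAK-981 and 345 CPM with vehicle in T cells, had a UMI in 9 TAK-981 and 22 vehicle A20 cells (0.924 and 0.905 CPM).

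In A20 cells, 2 of the 9 genes were at least 2-fold higher with TAK-981 and 0 were at least 2-fold lower. Among all 12250 genes with at least 10 UMIs, 3.46% were at least 2-fold higher and 1.5% at least 2-fold lower. On the log2 scale the ratio of TAK-981 to vehicle was under 0.1 for Jchain and Mzb1, and its median over all 12250 genes was 0.06. For the other 7 of the 9 genes it ran from 0.44 for Igkv1-110 to 1.39 for Ighg2b. Of all genes, 87.6% had a ratio below that of Igkv1-110. Ighd, with few UMIs, is among these 7 although its interval lay on both sides of 0. The median over the 9 genes was 0.46. Of the genes with at least 400 UMIs, a depth that 8 of the 9 genes reached, 0.599% were at least 2-fold higher. Values below are CPM of UMIs summed over A20 cells, with exact 95% intervals. UMIs count molecules and were not divided by gene length, so the CPM levels below are compared between libraries, and shares of a locus are shares of its UMIs.

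Ighg2b, an IgG constant gene, was at 23.2 CPM with TAK-981 (754 UMIs) and 8.87 CPM with vehicle (470 UMIs), a log2 ratio of 1.39 (1.22 to 1.56). Ighg2c was at 98.7 CPM with TAK-981 (3203 UMIs) and 51.0 CPM with vehicle (2704 UMIs), a log2 ratio of 0.95 (0.88 to 1.03), just under the 2-fold line. Iglv1 was at 15.0 CPM with TAK-981 (487 UMIs) and 6.75 CPM with vehicle (358 UMIs), a log2 ratio of 1.15 (0.95 to 1.35). Ighg2b and Iglv1 thus passed 2-fold, and Ighg2c, at 1.93-fold, did not. The Iglv1 ratio rested on single cells. One TAK-981 cell held 119 Iglv1 UMIs (24.4%) and 1 vehicle cell held 40 (11.2%), and the log2 ratio was 0.92 without these 2 cells and 0.44 without the 4 TAK-981 cells and 1 vehicle cell that had 10 or more Iglv1 UMIs.

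Ighm, the IgM constant gene, was at 368 CPM with TAK-981 (11959 UMIs) and 210 CPM with vehicle (11123 UMIs), a log2 ratio of 0.81 (0.77 to 0.85). Igkc was at 269 CPM with TAK-981 and 195 CPM with vehicle, a log2 ratio of 0.46 (0.42 to 0.51). Igkv1-110 was at 878 CPM with TAK-981 and 648 CPM with vehicle, a log2 ratio of 0.44 (0.42 to 0.46). These 2 kappa ratios had overlapping intervals. The Igkc ratio moved with the mitochondrial limit, to 0.36 under 5% and 0.54 with no limit. That of Igkv1-110 changed little, at 0.45 under 5% and 0.42 with no limit. The constant genes of the lambda locus that were not members, Iglc1 and Iglc3, had log2 ratios of 0.32 and 0.35. Ighd, the IgD constant gene, had 26 UMIs with TAK-981 and 31 with vehicle, and its log2 ratio of 0.45 had an interval on both sides of 0 (-0.36 to 1.25).

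The assembly partners hardly differed. Jchain was at 881 CPM with TAK-981 (28610 UMIs) and 865 CPM with vehicle (45843 UMIs), a log2 ratio of 0.03 (0.01 to 0.05) that turned to -0.031 under median-of-ratios scaling. Mzb1 was at 965 CPM with TAK-981 and 915 CPM with vehicle, a log2 ratio of 0.08 (0.06 to 0.10). Ighm, Ighg2c and Igkc had higher ratios than Jchain and Mzb1, with intervals that did not overlap.

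**Figure D1:**
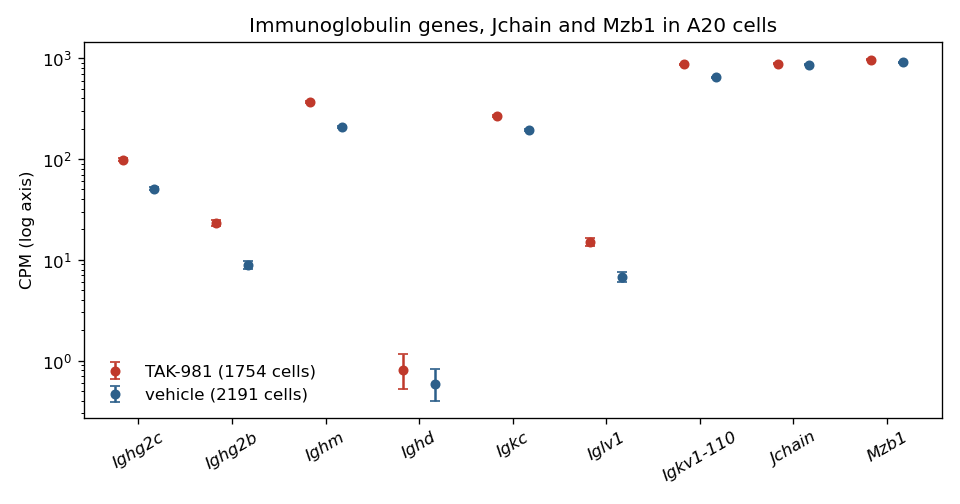
CPM of the 9 genes (horizontal axis) in A20 cells on a log axis, TAK-981 in red at the left of each pair and vehicle in blue; points are UMIs summed over cells and bars exact Poisson 95% intervals. Ighg2b and Ighg2c stand at 23.2 and 98.7 CPM with TAK-981, against 8.87 and 51.0 CPM with vehicle, while the Jchain and Mzb1 pairs lie nearly level.

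The cells that carried a UMI were counted after each cell had been thinned to 4000 UMIs, a depth that every barcode of both libraries exceeded. Ighg2c was then found in 31.9% of TAK-981 and 17.6% of vehicle A20 cells, and Ighg2b in 9.35% and 3.61%. Ighm was found in 70.5% of TAK-981 and 48.2% of vehicle cells, and Igkc in 60.3% and 49.6%. Jchain was found in 86.3% of TAK-981 and 86.2% of vehicle cells, and Mzb1 in 93.3% and 93.4%. The intervals of the libraries thus overlapped for both assembly partners and did not for these 4 chain genes. They overlapped for Iglv1, found in 3.02% of TAK-981 and 2.05% of vehicle cells, and for Ighd, found in 0.342% and 0.228%. The share of all genes without overlap was not counted, so the lack of it is not read as particular to these 4 genes. Before thinning, and so at unequal depths, Ighg2c had a UMI in 68.1% of TAK-981 and 57.1% of vehicle A20 cells. Ighm had one in 91.8% and 84.3%, Igkc in 89.97% and 89.8%, and Igkv1-110 in 94.8% and 93.6%.

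Within A20 cells the IgG genes and Igkc moved with the mitochondrial share of a cell's UMIs. With TAK-981, Ighg2c was at 81.2 CPM in the 1439 cells under 5%, 275 CPM in the 315 cells between 5 and 10%, and 282 CPM in the 275 Cd79a cells at 10% or more that the rule leaves out. With vehicle it was at 49.2 CPM in 1990 cells, 95.6 CPM in 201 cells and 250 CPM in 88 cells of the same ranges. Ighg2b gave 18.8, 68.0 and 70.0 CPM with TAK-981 and 8.19, 25.5 and 49.4 CPM with vehicle. Igkc gave 242, 538 and 660 CPM with TAK-981 and 188, 352 and 511 CPM with vehicle. So all 3 genes were higher in cells with a larger mitochondrial share, in both libraries.

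Ighm did not follow them. It gave 365, 407 and 323 CPM with TAK-981 and 210, 199 and 227 CPM with vehicle over the same ranges. Igkv1-110 went the other way, with 894, 724 and 529 CPM with TAK-981 and 655, 484 and 426 CPM with vehicle. Cells of higher mitochondrial share were also shallower, with medians of 18724, 8119 and 5972 UMIs with TAK-981 and 24021.5, 9620 and 7622 with vehicle. The TAK-981 library held more of them. Under a limit of 5% the log2 ratio was 0.72 for Ighg2c, 1.20 for Ighg2b and 0.36 for Igkc, and the part of cell quality in the remaining differences was not tested.

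**Figure D2:**
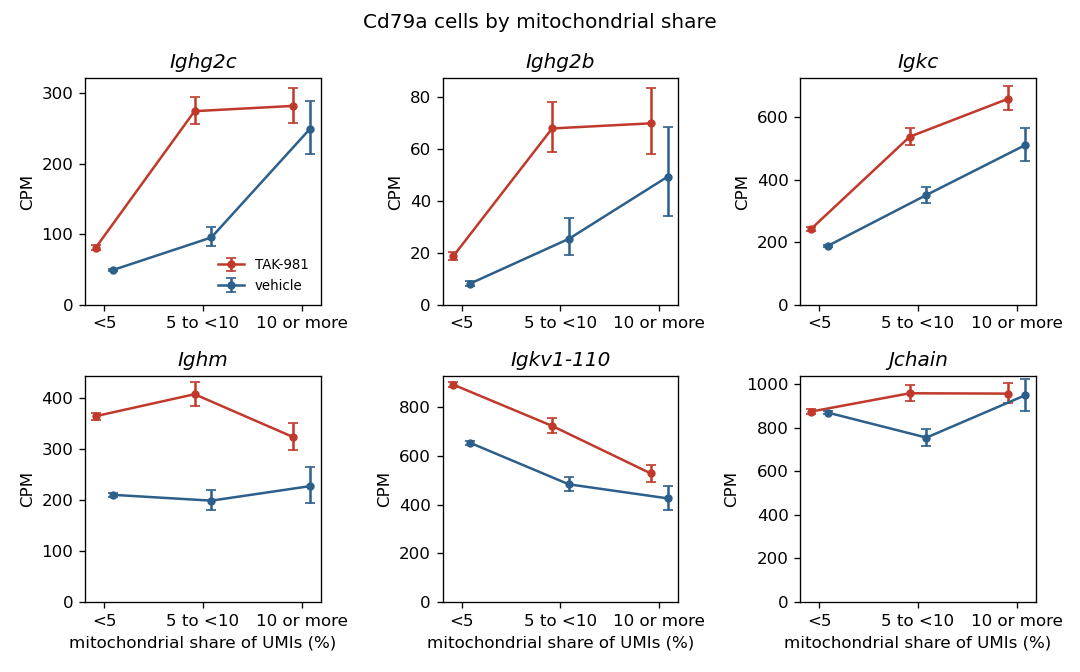
CPM of 6 genes in Cd79a cells without Cd3 or Lyz2 UMIs, by the mitochondrial share of the cell's UMIs in percent; TAK-981 in red, vehicle in blue, bars exact Poisson 95% intervals. Ighg2c, Ighg2b and Igkc climb with the share in both libraries, Igkv1-110 declines, and the Ighm points of TAK-981 lie between 323 and 407 CPM, above the 199 to 227 CPM of vehicle.

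Over A20 cells thinned to 4000 UMIs, the 5 genes most like Ighg2c among 6066 genes were the mitochondrial genes mt-Co3, mt-Co1, mt-Atp6 and mt-Co2 and the nuclear RNA Malat1, by the mean Spearman rho of the 2 libraries. The leading rho for mt-Co3 was 0.32 in 1754 TAK-981 cells and 0.14 in 2191 vehicle cells. The 5 genes most like Igkc were all mitochondrial (mt-Cytb, mt-Co1, mt-Co2, mt-Atp6 and mt-Co3), with mean rho of 0.28 to 0.29. For Jchain they were Cd74 and H2-Aa, of antigen presentation on MHC class II, then Tmsb4x, Tmsb10 and Ppia, with mean rho of 0.23 to 0.28. For Mzb1 they were Cd74, Fth1, the B cell receptor subunit Cd79b, Cyba and Ltb, with mean rho of 0.17 to 0.20. All these values are weak, come from sparse counts and share each cell's library, and they are given as a description. Among the 9 genes themselves the highest was Igkv1-110 with Jchain, at 0.24 with TAK-981 and 0.17 with vehicle.

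Ighm had the most UMIs of the heavy constant genes. It held 68.7% (68.0 to 69.4%) of the 17410 heavy constant UMIs of TAK-981 A20 cells and 69.1% (68.4 to 69.8%) of the 16089 of vehicle cells. Ighg2c came next with 18.4% (17.8 to 19.0%) with TAK-981 and 16.8% (16.2 to 17.4%) with vehicle. Ighg3 held 7.20% and 9.32%, and Ighg2b 4.33% and 2.92%, with TAK-981 and vehicle. Ighe, Igha, Ighd and Ighg1 were minor, each between 0.121% and 0.758% in either library. The order of the 4 leading genes was the same in both libraries, and no 2 neighbours among them had overlapping intervals. The kit reads transcript starts, where a rearranged chain carries its variable segment. In A20 cells Igkv1-110 had 28519 UMIs and Igkc 8725 with TAK-981, and 34349 and 10326 with vehicle. All heavy variable rows together held 84 and 126 UMIs. Whether these constant gene shares follow the amounts of IgM and IgG transcripts was not tested. The loss of BALB/c reads that differ from the reference Ighg2c was not tested either.

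Over all A20 cells Ighm led the heavy constant genes in 77.5% with TAK-981 and 68.8% with vehicle, the lead was tied in 8.84% and 10.4%, and 4.39% and 7.71% had no heavy constant UMI. Among cells with at least 10 heavy constant UMIs, Ighm led in 669 of 726 TAK-981 cells (92.1%, 89.9 to 94.0%) and in 579 of 622 vehicle cells (93.1%, 90.8 to 94.95%). This minimum is reached mostly through Ighm itself, so it favours cells high in Ighm. Ighg2c led in 25 of these TAK-981 cells and 21 of these vehicle cells, and Ighg3 in 6 and 5. The Ighm share per cell had a median of 72.2% with TAK-981 and 73.0% with vehicle. UMIs of Ighm and of Ighg2c occurred together in 1141 TAK-981 cells (65.1%) and 1136 vehicle cells (51.8%), whereas Ighg2c without Ighm was seen in 53 (3.02%) and 115 (5.25%). Ighm had a UMI in 91.8% of all TAK-981 and 84.3% of all vehicle A20 cells, so the overlap was read against a high base rate. In T cells Ighm had a UMI in 31.2% with TAK-981 and 46.0% with vehicle. The Ighg2c share itself moved with the mitochondrial limit: it was 16.0% with TAK-981 and 16.3% with vehicle under a limit of 5%, and 19.8% and 17.5% with no limit.

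Ighd could not be told apart from the background in T cells, which itself rests on few cells. It had a UMI in 1.48% of TAK-981 and 1.19% of vehicle A20 cells, at median depths of 16195 and 22309 UMIs. T cells, which should lack it, had one in 2 of 48 (4.17%) and 2 of 63 (3.17%), at medians of 6660.5 and 9065 UMIs. Among T cells without a Cd79a UMI it was 1 of 38 with TAK-981 (2.63%, 0.0666 to 13.8%). With vehicle it was 1 of 49 (2.04%, 0.0517 to 10.9%).

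For the IgG genes, 1 cell of the TAK-981 library stood far above the rest. This cell held 166 Ighg2c UMIs (5.18% of the total), 42 Ighg2b, 206 Jchain, 67 Igkc and 46 Igkv1-110 UMIs in a total of 8801, while the next TAK-981 cell held 13 Ighg2c UMIs. Its 16 Ighm UMIs were within the range of other cells, and it had none of Cd79b, Ms4a1, Prdm1 or Sdc1. The leading vehicle cell held 40 Ighg2c, 385 Jchain and 267 Igkv1-110 UMIs in a total of 67181. The next vehicle cell held 15 Ighg2c UMIs in a much smaller total of 15058. For Ighg2b no vehicle cell stood apart, as the first and the second held 5 UMIs each. Without the leading cell of each library the log2 ratio was 0.90 for Ighg2c and 1.32 for Ighg2b. Jchain reached 100 UMIs in 5 TAK-981 and 18 vehicle cells.

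**Figure D3:**
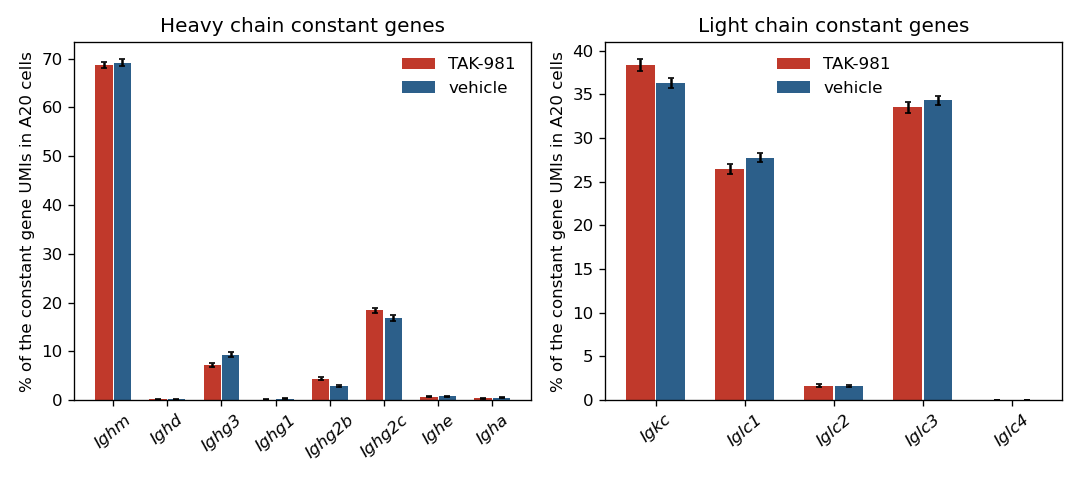
Percent of the heavy chain (left) and light chain (right) constant gene UMIs held by each gene in A20 cells, TAK-981 in red and vehicle in blue; bars carry exact 95% intervals. Ighm holds 68.7% with TAK-981 and 69.1% with vehicle, and the light chain UMIs are spread over Igkc, Iglc1 and Iglc3.

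Light chain counts came from both loci. Igkc held 38.4% (37.7 to 39.0%) of the 22743 light constant UMIs with TAK-981 and 36.3% (35.8 to 36.9%) of the 28431 with vehicle. Iglc3 held 33.5% and 34.3%, Iglc1 26.5% and 27.8%, and Iglc2 1.64% and 1.60%, with TAK-981 and vehicle. The constant exons of Iglc2 and Iglc3 differed at 11 of 314 bases, with a common run of 79 bases. How the authors' counting divided reads between these 2 genes is not given in the sources used here. Iglc4 had 0 UMIs in both libraries, which allows up to 3 UMIs in each. Igkc and a lambda constant gene were found together in 1481 TAK-981 cells (84.4%, 82.7 to 86.1%) and 1858 vehicle cells (84.8%, 83.2 to 86.3%). Igkc without lambda occurred in 97 and 110 cells, and lambda without Igkc in 146 and 191 cells. In T cells, which should lack both chains, Iglc1 had a UMI in 8.33% with TAK-981 and 12.7% with vehicle, against 78.0% and 79.2% of A20 cells. Igkc had a UMI in 35.4% of TAK-981 and 39.7% of vehicle T cells. T cells were shallower, with medians of 6660.5 UMIs with TAK-981 and 9065 with vehicle.

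Variable segment counts were uneven between the loci. Kappa variable segments summed to 936 CPM with TAK-981 and 691 CPM with vehicle over 160 rows, against 64.4 and 30.6 CPM over the 3 lambda variable rows. Heavy chain variable segments summed to 2.59 CPM with TAK-981 (84 UMIs) and 2.38 CPM with vehicle (126 UMIs) over 185 rows. The D and J segment rows had 0 UMIs. BALB/c variable alleles that differ from the reference were not analysed here.

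Igkv1-110 dominated the kappa segments. It held 28519 of 30380 kappa variable UMIs with TAK-981 (93.9%, 93.6 to 94.1%) and 34349 of 36613 with vehicle (93.8%, 93.6 to 94.1%). Igkv1-117 held 3.23% with TAK-981 and 3.42% with vehicle, Igkv1-88 1.88% and 1.96%, and Igkv14-111 0.922% and 0.584%. The Igkv1-117 exon shown above shares long stretches with Igkv1-110, and how the authors' counting assigned such reads is not given in the sources used here. The per-cell level of Igkv1-110 had a median of 12 UMIs with TAK-981 and 11 with vehicle, with a highest cell of 120 and 267. Among heavy segments, Ighv1-72 led with 55 UMIs with TAK-981 and 57 with vehicle. The others over 5% of their locus were Ighv2-2, Ighv1-53 and Ighv5-4 with TAK-981 and Ighv8-13, Ighv11-2 and Ighv5-12 with vehicle, at 6 to 13 UMIs each.

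Iglv2, which is not a member, separated a small set of A20 cells in both libraries, chosen after its values were seen and therefore described with no test. There were 20 TAK-981 cells (1.14%, 0.698 to 1.76%) and 15 vehicle cells (0.685%, 0.384 to 1.13%) with 10 or more Iglv2 UMIs. They held 1480 of the 1495 Iglv2 UMIs with TAK-981 and 1157 of 1186 with vehicle, with highest cells of 173 and 215 UMIs. Just outside the threshold, 8 TAK-981 cells and 9 vehicle cells had 1 to 9 UMIs, and all other cells had none.

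The cells with 10 or more Iglv2 UMIs carried Iglc1 but hardly any Iglc3. In TAK-981 cells of this set Iglc3 was at 13.6 CPM (5 UMIs, in 4 of 20 cells), against 237 CPM in the other TAK-981 A20 cells. In vehicle cells of the set it was at 32.5 CPM (13 UMIs, 11 of them in 1 cell), against 185 CPM in the other vehicle A20 cells. Iglc1 was at 310 CPM in the set and 184 CPM in the other cells with TAK-981, and at 327 and 148 CPM with vehicle. Iglc1 thus held its level or more where Iglc3 was low.

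The kappa chain was present in these cells too. All 20 TAK-981 cells and all 15 vehicle cells had an Igkv1-110 UMI, at 1013 and 711 CPM, and Igkc was at 263 and 265 CPM. Ighm was at 445 CPM in the set and 367 CPM in the other cells with TAK-981, and at 165 and 210 CPM with vehicle. Rhox5, a homeobox gene, had a UMI in 1 of the 20 TAK-981 cells of the set, against 76.1% of the other TAK-981 cells, and in 4 of the 15 vehicle cells of the set, against 87.5% of the other vehicle cells. Xist had a UMI in 0 of the 20 TAK-981 cells and 1 of the 15 vehicle cells of the set. In T cells it had one in 83.3% with TAK-981 and 88.9% with vehicle. Whether the cells of the set are tumour or host cells was not tested. Median depths of the set were 17961.5 and 26138 UMIs, not below those of the other cells (16148 and 22253). Iglv1 was spread otherwise: 11.6% of TAK-981 and 10.8% of vehicle cells with under 10 UMIs of both segments had at least 1 Iglv1 UMI, and 4 TAK-981 cells and 1 vehicle cell had 31 to 119. Among T cells, 1 of 48 with TAK-981 and 1 of 63 with vehicle had an Iglv1 UMI.

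**Figure D4:**
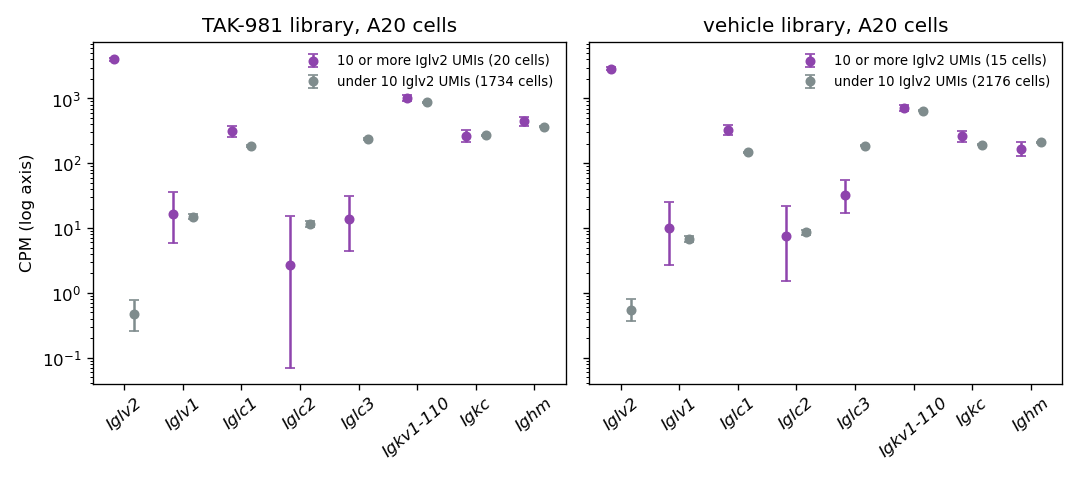
CPM (log axis) of 8 chain genes in A20 cells with 10 or more Iglv2 UMIs (purple, left of each pair) and in the other A20 cells (grey), with TAK-981 in the left panel and vehicle in the right; bars are exact Poisson 95% intervals. Iglc3 is at 13.6 and 32.5 CPM in the purple sets, against 237 and 185 CPM in the grey ones, while Igkv1-110, Igkc and Ighm differ less. The purple and grey intervals do not overlap for Igkv1-110 and Ighm with TAK-981, nor for Igkc with vehicle.

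Other genes of the pathway were read from 4 lists, with the same 2-fold rule and the background given above. Of 19 genes of the B cell receptor and B cell identity, 0 were at least 2-fold higher or lower and the median log2 ratio was 0.06. Of these 19 ratios, 11 were above 0. The highest was that of Pou2f2, an octamer factor that acts on immunoglobulin promoters, at 62.4 CPM with TAK-981 and 36.1 CPM with vehicle (log2 ratio 0.79). Pax5, a B lineage factor, came next at 61.7 and 43.6 CPM (0.50). The lowest were Cd72 (-0.49), Ciita (-0.31) and Pou2af1 (-0.30), the last at 411 CPM with TAK-981 and 504 CPM with vehicle. Of 14 chaperones and enzymes that fold antibodies in the endoplasmic reticulum, 0 passed 2-fold, all 14 ratios were above 0 and the median was 0.30, where 59.9% of all genes were above 0. Hsp90b1, the chaperone GRP94, was at 561 CPM with TAK-981 and 323 CPM with vehicle (0.80), and the lectin chaperone Calr at 472 and 310 CPM (0.61).

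Of 16 measured genes of the plasma cell programme, 0 passed 2-fold, 12 were above 0 and the median was 0.24. Prdm1, the factor that drives plasma cell differentiation, had 36 UMIs with TAK-981 and 30 with vehicle, and Xbp1, which expands the secretory machinery, was at 127 and 113 CPM (0.17). Of 10 genes of switching and mutation, 1 was at least 2-fold higher, 0 were at least 2-fold lower and the median was -0.07. Rag1, which cuts at recombination signals, had 11 UMIs with TAK-981 and 4 with vehicle (2.17, interval 0.41 to 4.27). Ung, which removes uracil from DNA, was at 34.8 CPM with TAK-981 and 46.4 CPM with vehicle (-0.41).

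Immunoglobulin counts also appeared in cells of other types. The 9 genes together had 327 UMIs in 48 TAK-981 T cells and 1036 UMIs in 63 vehicle T cells, or 712 and 1168 CPM. That was 20.3% (18.2 to 22.7%) of the level of TAK-981 A20 cells and 40.3% (37.8 to 42.8%) of that of vehicle A20 cells. In myeloid cells it was 7.64% (6.19 to 9.32%) with TAK-981 and 6.97% (5.72 to 8.42%) with vehicle. T cells thus carried more than myeloid cells in both libraries.

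Few cells held these counts. The 5 leading T cells held 79.5% of the 327 UMIs with TAK-981 and 63.5% of the 1036 with vehicle, and the median T cell had 1 and 2. The median A20 cell had 54 with TAK-981 and 60 with vehicle. Without the leading cell the myeloid level was 4.29% of A20 cells with TAK-981 and 3.28% with vehicle, and with every cell thinned to 4000 UMIs the T cell level was 12.6% and 25.03%. At a limit of 20 Lyz2 UMIs the myeloid level was 5.83% with TAK-981 and 3.06% with vehicle.

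The cells with most immunoglobulin also had UMIs of Cd79a, the B cell receptor subunit that defined A20 cells. In the 10 TAK-981 and 14 vehicle T cells with a Cd79a UMI, the 9 genes were at 51.4% and 93.3% of the A20 level. The vehicle cells among them had a median of 23878 UMIs, against 8115 in vehicle T cells without Cd79a, while the TAK-981 medians were 10146.5 and 6525.5. In the 38 TAK-981 and 49 vehicle T cells without a Cd79a UMI, the level was 4.59% (3.40 to 6.07%) and 5.35% (4.26 to 6.63%). In the 35 TAK-981 and 40 vehicle myeloid cells without one it was 2.08% and 2.14%. The intervals of the arms overlapped in T cells without a Cd79a UMI and did not overlap in those with one. No doublet caller was run, and the part of droplets that hold 2 cells was not tested.

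The genes differed in their level in T cells relative to A20 cells. In T cells without a Cd79a UMI, Igkc was at 30.5% (19.7 to 45.1%) of the A20 level with TAK-981 (25 UMIs in 12 of 38 cells) and at 31.7% (21.8 to 44.5%) with vehicle (33 UMIs in 13 of 49 cells). Ighm was at 9.80% (4.89 to 17.5%) with TAK-981 (11 UMIs in 8 cells) and at 35.6% (25.4 to 48.5%) with vehicle (40 UMIs in 19 cells). These 2 constant genes made up most of the counts left in such cells.

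The other abundant genes had few UMIs in the same cells. Igkv1-110, which had more UMIs than Igkc in A20 cells, had 3 UMIs with TAK-981, or 1.12% (0.231 to 3.28%) of the A20 level, and 0 UMIs in 49 cells with vehicle, where 3 UMIs would be 0.865% of the A20 level. Jchain was at 0.745% with TAK-981 and 0.864% with vehicle, and Mzb1 at 1.36% and 1.02%. The lambda gene Iglc3 had 0 UMIs with TAK-981 and 1 with vehicle. The intervals of Igkc and Ighm lay above those of Igkv1-110, Jchain and Mzb1 in both libraries. The ratios between genes in these T cells were therefore not those of A20 cells. The source of the Igkc and Ighm counts was not tested.

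Myeloid cells without a Cd79a UMI showed the same for Ighm with vehicle. Ighm was at 4.29% (1.39 to 10.0%) of the A20 level with TAK-981 (5 UMIs in 5 of 35 cells) and at 18.4% (10.9 to 29.1%) with vehicle (18 UMIs in 8 of 40 cells). Igkc was at 7.06% (2.59 to 15.4%) with TAK-981 and 1.10% (0.0278 to 6.13%) with vehicle. Jchain was at 2.51% and 1.24%, Mzb1 at 0.982% and 0.936%, and Igkv1-110 at 0.720% and 0.331%, with TAK-981 and vehicle. Ighg2c and Ighg2b had 0 UMIs in these cells in both libraries, at a depth where 3 UMIs would be 9.61% and 12.6% of the A20 level of Ighg2c.

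**Figure D5:**
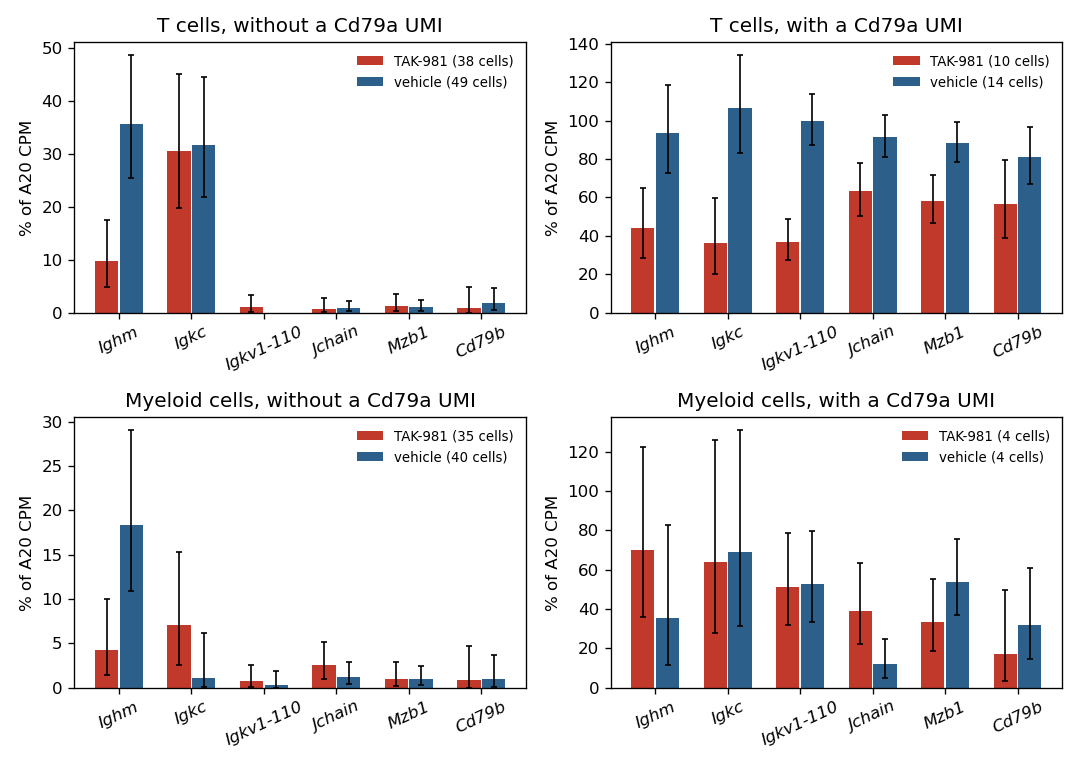
Level of 6 genes in T cells (top) and myeloid cells (bottom) as percent of their CPM in A20 cells of the same library, without (left) and with (right) a Cd79a UMI; TAK-981 in red, vehicle in blue, bars exact 95% intervals where at least 1 UMI was found. Without a Cd79a UMI, Igkc stands at 30.5% in TAK-981 and 31.7% in vehicle T cells, while Igkv1-110, Jchain, Mzb1 and Cd79b are at 0 to 1.79%.

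Between the arms, 4 of the genes were lower with TAK-981 over all T cells, with intervals below 0. The share of all genes with this pattern was not counted, so it is not read as particular to these 4. Cd79b, Pou2af1 and Rhox5, which are not members, were lower too, with log2 ratios of -0.91, -0.85 and -0.94 in T cells. Ebf1, another B cell marker, was at 0.36 with an interval on both sides of 0. In T cells Igkv1-110 was at 115 CPM with TAK-981 and 257 CPM with vehicle, a log2 ratio of -1.16 (-1.62 to -0.72). Jchain was at 192 and 318 CPM (-0.73), Mzb1 at 198 and 327 CPM (-0.72), and Ighm at 78.4 and 123 CPM (-0.65), with TAK-981 and vehicle. In T cells without a Cd79a UMI, Igkv1-110 was at 9.84 CPM with TAK-981 and had 0 UMIs with vehicle, Mzb1 was at 13.1 and 9.34 CPM, Jchain at 6.56 and 7.47 CPM, and Ighm at 36.1 and 74.7 CPM. The lower level with TAK-981 was thus not seen there for Igkv1-110 or Mzb1, and Jchain rested on 2 and 4 UMIs. In A20 cells Ighm, Igkv1-110 and Mzb1 had ratios above 0, and the sign of Jchain turned with the scaling. Cd79a itself was at 120 CPM in TAK-981 T cells and 148 CPM in vehicle T cells, and the summed level of the 6 B cell markers was 324 CPM with TAK-981 and 444 CPM with vehicle.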

How the data were processed

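The 2 libraries, 1 per arm, were deposited as raw UMI counts per gene and barcode; per the file headers the values are whole-number counts, and the authors' filter on barcodes is not given in the sources used here. Cell Ranger 2.1.1 and Seurat 2 are named, with no role, in the submitters' processing notes. Counts were summed over the cells of a class and divided by all UMIs of those cells (CPM), with Python 3.11.15, numpy 2.4.6, scipy 1.17.1 and pandas 2.3.3. The kit reads the 5′ end, so nothing was divided by gene length. With 1 library per arm no test between arms was possible: ratios carry exact conditional binomial 95% intervals, levels exact Poisson ones and shares exact Clopper-Pearson ones, which cover counting error only. The code was tested on simulated data. A gene with at least 10 UMIs over both libraries and a fold of 2 was counted as higher or lower. Totals were 37470319 UMIs with TAK-981 and 57471750 with vehicle. Detection was compared after thinning to 4000 UMIs per cell. Named genes were the 9 genes, the other constant genes, variable segments over 5% of their locus, fixed pathway lists and, for 4 of the 9 genes, the 5 genes with the highest mean Spearman rho. The genes and lists were chosen with earlier results of these data known. The Iglv2 and Iglv1 sets and some alternatives were chosen after seeing the data. Coordinates and sequences are those of GENCODE M21 (GRCm38, C57BL/6), where 28339 of 28692 identifiers matched.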

Additional observations from a re-analysis of the deposited data

Results flagged for a closer look

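In 4 of the 9 genes the ratio of TAK-981 over vehicle had opposite signs in T cells and A20 cells, with intervals on opposite sides of 0. The share of all genes with this pattern was not counted, so it is not read as particular to these genes. Pax5, which is not a member, had the pattern too, with log2 ratios of -1.48 in T cells and 0.50 in A20 cells. In T cells the log2 ratio was -0.65 for Ighm, -1.16 for Igkv1-110, -0.73 for Jchain and -0.72 for Mzb1. In A20 cells it was 0.81, 0.44, 0.03 and 0.08 for the same genes, and the Jchain value turned to -0.031 under median-of-ratios scaling. The difference between the cell classes was not tested, since each arm is 1 library. The T cell values rest on 48 TAK-981 and 63 vehicle cells, of which 10 and 14 had a Cd79a UMI and held most of the counts. In T cells without a Cd79a UMI, Igkv1-110 had 3 UMIs with TAK-981 and 0 with vehicle, and Mzb1 was at 13.1 and 9.34 CPM, so the lower level with TAK-981 was not seen for these 2 genes there.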

How the results depend on the processing

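No paired analysis was possible because each arm is 1 library, and for the same reason no replicate could be left out. Depth limits Ighd, Rag1 and every gene in T and myeloid cells. Of 108 recomputed gene ratios 84 stayed within their interval, 23 moved and 1 turned sign, Jchain at -0.031 with median-of-ratios scaling. Of 98 recomputed counts, shares and levels 61 were the same and 37 moved. The number of the 9 genes at least 2-fold higher was 1 without cells with 10 or more Iglv1 UMIs, 1 without each gene's leading cell, and 3 in 4 settings (thinned, no mitochondrial limit, without the deepest 5% of cells, mean CPM per cell). With no minimum of UMIs, 11.9% of all genes were at least 2-fold higher and 9.98% at least 2-fold lower. Ighg2b passed 2-fold in 12 of 12 settings and Ighg2c in 4 of 12 (log2 0.72 to 1.23).
The Ighm share of heavy constant UMIs with TAK-981 was 64.3% thinned, 66.9% with no mitochondrial limit, 71.8% under 5% and 69.5% without the leading Ighg2c cell, and with vehicle 68.2% thinned and 68.4% with no limit. In that order the Ighg2c share with TAK-981 was 21.6%, 19.8%, 16.0% and 17.7%, and with vehicle it was 17.5% with no limit. The Igkc share of light constant UMIs with TAK-981 was 41.9% thinned, 40.6% with no limit, 35.7% under 5% and 37.2% with at least 3 Cd79a UMIs, and with vehicle 37.1%, 36.9% and 35.4% in the first 3 settings.
The level in T cells with TAK-981 was 4.59% of A20 cells without Cd79a cells, 15.6% without the leading cell and 12.6% thinned, and with vehicle 5.35%, 35.2% and 25.03%, and 33.8% with a Cd3 sum of at least 5. In myeloid cells it was 2.08%, 4.29% and 4.51% with TAK-981 and 2.14%, 3.28% and 5.54% with vehicle, and 5.83% and 3.06% at 20 Lyz2 UMIs. Apart from fewer cells or UMIs entering, the cause of these shifts was not tested.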

Other observations

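A20 cells with no Igkv1-110 UMI numbered 92 with TAK-981 (5.25%) and 140 with vehicle (6.39%), at median depths of 7838.5 and 9609 UMIs, below those of all A20 cells. The vehicle cell with the most Iglv1 UMIs, 40, was among them and had no Igkc UMI, while it had 9 Ighm UMIs. Of 3 markers of plasmacytoid dendritic cells, Siglech had 0 UMIs in TAK-981 A20 cells and 46 UMIs in 6 vehicle A20 cells, and Ccr9 had 0 and 18 UMIs. The other marker, Bst2, was at 233 CPM with TAK-981 and 175 CPM with vehicle, with a UMI in 83.0% and 86.7% of A20 cells. The part of such cells in the immunoglobulin counts was not tested.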
